A study of Mus musculus with 16 samples.

Results

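The 8 genes *Ifit1*, *Ifit2*, *Ifit3*, *Mx1*, *Mx2*, *Rsad2*, *Cmpk2* and *Ifi44* are antiviral effector genes of the interferon response, and they were described here by their levels in mouse dendritic cells. They were taken by gene symbol from a table of 23356 genes, in which each of the 8 had 1 row with the status OK in all 8 conditions. The study grew bone marrow-derived dendritic cells (BMDCs) from C57BL/6 mice with GM-CSF and IL-4 and collected the floating and loosely attached cells. The BMDCs were wild type, *Tmem173*-/-, which lack the cyclic dinucleotide receptor STING, *Irf1*-/-, which lack the transcription factor IRF1, or *Irf3/7*-/-, which lack the transcription factors IRF3 and IRF7. Cells of each genotype were kept without treatment (NT) or stimulated for 18 h with c-di-GMP (CDG), a bacterial second messenger, at a labelled dose of 25 ug/ml, although figure legends of the study give another dose. The 16 samples, 2 for each of the 8 conditions, were sequenced as stranded mRNA libraries, and the authors merged the samples of a condition into 1 FPKM (fragments scaled to transcript length and to the size of the library) with a confidence interval. FPKM is scaled by transcript length, so levels of different genes can be set side by side. All 4 genotypes share the C57BL/6 background, and no condition has values of single cultures, so the spread between cultures is not known.

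STING on the endoplasmic reticulum binds cyclic dinucleotides such as c-di-GMP and activates TBK1, which phosphorylates IRF3 and, where present, IRF7, so that type I interferon genes are transcribed. Secreted interferon then acts through its receptor and the transcription factor complex ISGF3 on interferon-stimulated response elements in front of the effector genes, while IRF1 binds closely related motifs. The IFIT proteins bind foreign RNA and limit its translation, viperin (encoded by *Rsad2*) is a radical SAM enzyme that makes a chain-terminating nucleotide from CTP, and CMPK2 is a mitochondrial nucleotide kinase whose gene lies next to *Rsad2*. Mx proteins are dynamin-like GTPases that block virus replication, and IFI44 is a further interferon-induced protein whose function is less well defined.

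The genes lie in 4 places of the genome (GRCm38). *Ifit2* (chr19:34550694-34576534), *Ifit3* (chr19:34583529-34588982) and *Ifit1* (chr19:34640889-34650009) stand on the plus strand within 99.3 kb. *Rsad2* (chr12:26442743-26456452, minus strand) and *Cmpk2* (chr12:26469215-26479837, plus strand) are transcribed away from each other from starts 12.8 kb apart. *Mx1* (chr16:97447035-97462906, minus strand) and *Mx2* (chr16:97536081-97560901, plus strand) are 73.2 kb apart, and *Ifi44* (chr3:151730923-151749959, minus strand) stands alone. RefSeq lists *Mx1* and *Mx2* of the C57BL/6J assembly as transcribed pseudogenes, so their FPKM measure RNA and not an antiviral protein, whereas GENCODE lists *Mx1* as protein coding and *Mx2* as a polymorphic pseudogene. No other locus of the table overlapped the locus of any of the 8 genes.

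Promoter sequences were taken from RefSeq (GRCm38.p6), which held an entry for 6 of the 8 genes, namely all but *Mx1* and *Mx2*. The 250 bases before each start were searched on both strands for GAAANNGAAA, the core of the interferon-stimulated response element. By the 2-fold rule given below, *Ifit1* and *Ifit3* were not called lower in the treated *Irf* knockouts, and *Rsad2* and *Cmpk2* were. Their 4 promoters are shown as examples, and capitals mark the matches. They cover chr19:34640639-34640888 (plus strand) for *Ifit1*, chr19:34583279-34583528 (plus strand) for *Ifit3*, chr12:26456453-26456702 (minus strand) for *Rsad2* and chr12:26468965-26469214 (plus strand) for *Cmpk2*, each written 5′ to 3′ towards the start.
Ifit1: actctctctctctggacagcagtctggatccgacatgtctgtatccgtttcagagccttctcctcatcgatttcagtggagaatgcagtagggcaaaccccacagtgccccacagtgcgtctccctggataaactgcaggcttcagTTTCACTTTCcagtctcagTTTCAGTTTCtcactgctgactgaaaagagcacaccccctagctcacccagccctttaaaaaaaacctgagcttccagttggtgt
Ifit3: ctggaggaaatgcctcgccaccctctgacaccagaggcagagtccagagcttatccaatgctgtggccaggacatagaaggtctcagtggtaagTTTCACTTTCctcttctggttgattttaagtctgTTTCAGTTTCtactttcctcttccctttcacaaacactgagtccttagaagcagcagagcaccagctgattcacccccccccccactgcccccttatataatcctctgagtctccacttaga
Rsad2: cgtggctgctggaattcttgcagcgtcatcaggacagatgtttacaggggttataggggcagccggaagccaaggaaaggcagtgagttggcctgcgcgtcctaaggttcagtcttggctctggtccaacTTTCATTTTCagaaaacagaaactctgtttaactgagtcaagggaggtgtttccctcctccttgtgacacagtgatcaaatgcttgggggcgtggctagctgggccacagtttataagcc
Cmpk2: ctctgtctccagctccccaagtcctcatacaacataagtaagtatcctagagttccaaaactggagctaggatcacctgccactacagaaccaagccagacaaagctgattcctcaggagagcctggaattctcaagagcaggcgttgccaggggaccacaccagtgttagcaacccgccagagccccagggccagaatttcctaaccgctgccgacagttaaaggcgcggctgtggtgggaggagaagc
*Ifit1* and *Ifit3* each held the matches TTTCACTTTC and TTTCAGTTTC, which lie between 75 and 104 bases before the start of *Ifit1* and between 112 and 156 bases before that of *Ifit3*. *Rsad2* held 1 match, TTTCATTTTC, from 110 to 120 bases before its start. No match was found in these windows of *Cmpk2*, *Ifi44* or the 2 RefSeq starts of *Ifit2*. Matches did not follow the calls, since *Ifit2* was not called lower in either treated *Irf* knockout and *Ifi44* was called lower in both. In treated *Irf3/7*-/- BMDCs, *Ifit1* and *Ifit3* were at 54.8% and 57.8% of the treated wild-type level, with intervals apart from it. Of all 32851 promoter windows of this length, 978 (2.98%) held at least 1 match and 59 (0.180%) held at least 2. A match describes the letters of the window and is not evidence of binding.

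The labels were checked against the targeted genes and against cell type markers. *Tmem173* had 8.97 and 7.49 FPKM in untreated and treated *Tmem173*-/- BMDCs and 103 and 118 FPKM in wild-type BMDCs. *Irf7* had 1.07 and 4.97 FPKM in *Irf3/7*-/- BMDCs and 15.2 and 687 FPKM in wild-type BMDCs. *Irf1* was at 25.9 and 116 FPKM in *Irf1*-/- BMDCs where wild-type BMDCs had 149 and 245 FPKM, and *Irf3* was at 7.74 and 20.2 FPKM in *Irf3/7*-/- BMDCs against 19.9 and 15.8 FPKM, so treated *Irf3/7*-/- BMDCs did not show less *Irf3* RNA. An FPKM counts reads of exons that a knockout allele may keep. Of 10 dendritic cell markers, 9 or 10 reached 1 FPKM in every condition, and their summed level lay between 4755 and 8574 FPKM. Markers of B cells summed to 3.34 to 10.7 FPKM and those of basophils and mast cells to 37.0 to 150 FPKM over the 8 conditions. Neutrophil markers summed to 1407 to 20003 FPKM and NK cell markers to 4.16 to 2177 FPKM. In the genotypes with STING the NK cell sums came mostly from *Gzma* and *Gzmb*. These had 349 and 321 FPKM in untreated wild-type BMDCs, where no other NK cell marker listed passed 8.02 FPKM (*Eomes*). The small NK cell sums of *Tmem173*-/- BMDCs came mostly from *Klrd1*. In *Tmem173*-/- BMDCs neutrophil markers summed to 20003 (untreated) and 14533 FPKM (treated). These sums lay above those of the dendritic cell markers, 6047 and 5282 FPKM. They came mostly from *S100a8* (10351 and 7513 FPKM) and *S100a9* (8336 and 5974 FPKM), as did the neutrophil sums of every other condition. Sums of different genes do not measure shares of cells. The authors' bounds lay 23.0% to 32.1% from the FPKM (median 25.7%) for the 8 genes in the 3 treated genotypes with STING, which sets the precision of the comparisons among them.

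In wild-type BMDCs, c-di-GMP raised the RNA of all 8 genes, from a summed 56.7 FPKM to 2715 FPKM. Viperin RNA rose most, and *Mx1*, which had the highest level of the 8 without treatment, rose least. Here and below the call of higher or lower asked that log2(FPKM + 0.1) differ by more than 1, that is more than 2-fold in FPKM + 0.1. It also asked that the authors' intervals be apart and that at least 1 of the conditions have 1 FPKM. By this rule 8 of the 8 genes were called higher in treated wild-type BMDCs, against 10.5% of all 11201 genes tested, and their median log2 change was 5.74 against 0.00334 for all genes tested. A log2 change in this text is always on the scale of log2(FPKM + 0.1), which understates the change of genes below 1 FPKM, and its interval is derived from the authors' bounds. In these whole cultures, fewer expressing cells and less RNA per cell cannot be told apart.

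**Figure D1:**
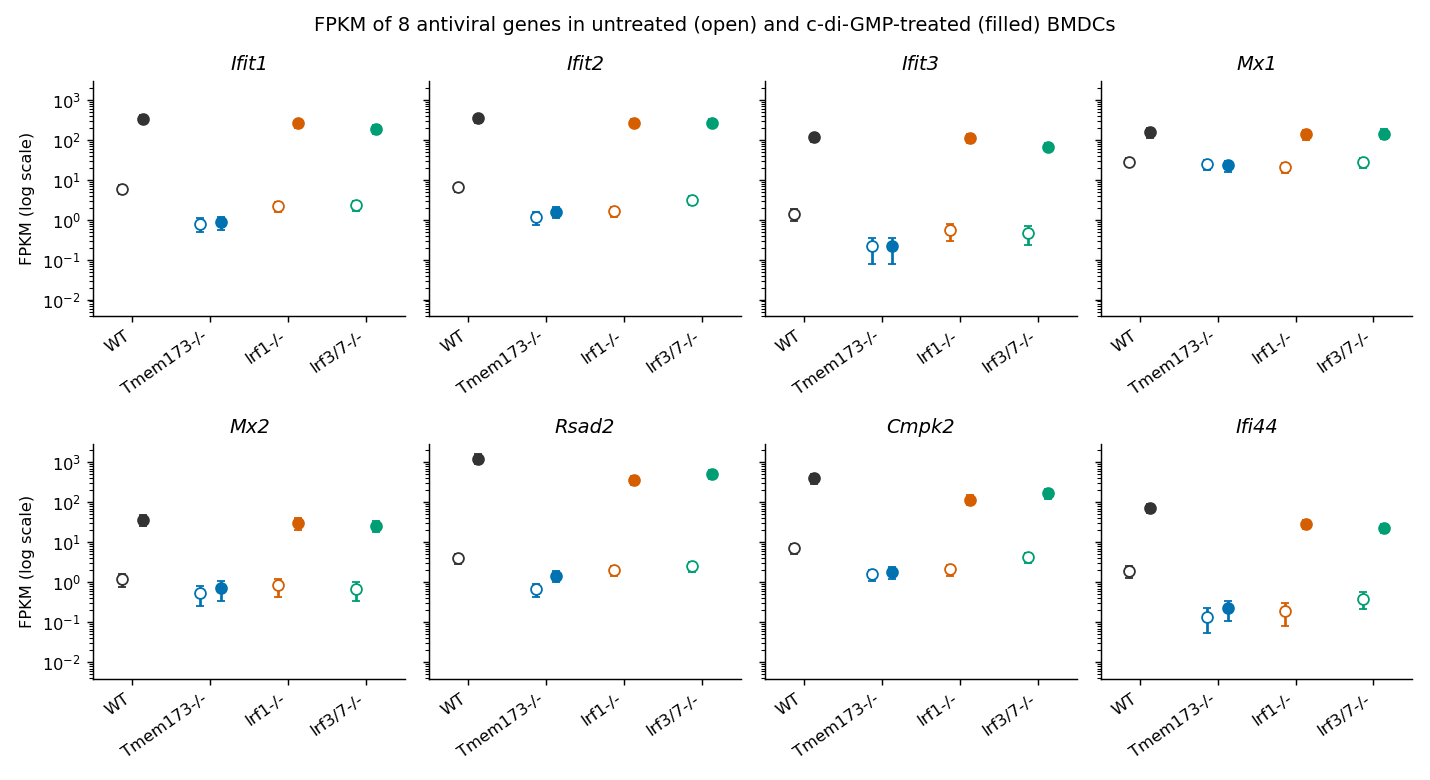
FPKM (log scale) of each gene in wild-type (WT), *Tmem173*-/-, *Irf1*-/- and *Irf3/7*-/- BMDCs, untreated (open circles) or treated with c-di-GMP (filled circles), with the authors' confidence bounds as bars. The filled circles of the 3 genotypes with STING lie above all open circles in every panel, and the 2 circles of *Tmem173*-/- lie close together in every panel. Those of *Tmem173*-/- are furthest apart for *Rsad2*, with bounds that do not overlap.

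The IFIT genes encode cytosolic RNA-binding proteins. *Ifit1* had 5.89 FPKM (authors' interval, 4.40 to 7.37) in untreated and 337 FPKM (257 to 417) in treated wild-type BMDCs. With c-di-GMP, *Irf1*-/- BMDCs had 256 FPKM (195 to 316), with 185 FPKM (141 to 229) in *Irf3/7*-/- and 0.866 FPKM (0.558 to 1.18) in *Tmem173*-/- BMDCs. Without treatment it was at 2.20 FPKM (1.54 to 2.85) in *Irf1*-/-, 2.27 FPKM (1.61 to 2.92) in *Irf3/7*-/- and 0.783 FPKM (0.482 to 1.09) in *Tmem173*-/- BMDCs. Treated wild-type and treated *Irf1*-/- BMDCs overlapped, treated *Irf3/7*-/- BMDCs overlapped treated *Irf1*-/- but not wild-type BMDCs, and among untreated cells wild-type BMDCs stood above all knockouts.

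*Ifit2* encodes the family member best known for its role in neurotropic virus infection in mice. It rose from 6.52 FPKM (5.00 to 8.04) to 341 FPKM (259 to 422) in wild-type BMDCs. With c-di-GMP it reached 268 FPKM in both *Irf1*-/- (204 to 332) and *Irf3/7*-/- BMDCs (205 to 332), and 1.56 FPKM (1.10 to 2.03) in *Tmem173*-/- BMDCs. The untreated knockouts had 1.63 FPKM (1.17 to 2.09; *Irf1*-/-), 3.13 FPKM (2.35 to 3.92; *Irf3/7*-/-) and 1.15 FPKM (0.745 to 1.56; *Tmem173*-/-). All 3 treated genotypes with STING overlapped for *Ifit2*, whereas untreated *Irf1*-/- BMDCs lay below both untreated wild-type and untreated *Irf3/7*-/- BMDCs.

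*Ifit3* rose from 1.39 FPKM (0.916 to 1.87) to 115 FPKM (88.5 to 141) in wild-type BMDCs. The treated knockouts were at 110 FPKM (84.3 to 135; *Irf1*-/-), 66.5 FPKM (51.1 to 81.8; *Irf3/7*-/-) and 0.215 FPKM (0.0796 to 0.358; *Tmem173*-/-). Without treatment these knockouts had 0.539 FPKM (0.299 to 0.796), 0.477 FPKM (0.239 to 0.697) and 0.221 FPKM (0.0796 to 0.358). Treated *Irf3/7*-/- BMDCs lay below both treated wild-type and treated *Irf1*-/- BMDCs without overlap. This level is uncertain, since 59.1% of the 35-base stretches of *Ifit3* transcripts, the length of the reads, also occur in its near copy *Ifit3b*. For *Ifit1* this share was 9.58%, mostly with *Ifit1bl2*, and for *Ifit2* it was 0.

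*Rsad2* was the most abundant of the 8 RNAs in the 3 treated genotypes with STING. In wild-type BMDCs it rose from 3.99 FPKM (2.90 to 5.08) to 1245 FPKM (899 to 1588), which placed it at rank 55 of all genes in treated wild-type BMDCs. It reached 362 FPKM (269 to 453) in treated *Irf1*-/-, 518 FPKM (381 to 654) in treated *Irf3/7*-/- and 1.46 FPKM (0.998 to 1.92) in treated *Tmem173*-/- BMDCs. Both treated *Irf* knockouts therefore lay below treated wild-type BMDCs without overlap and overlapped each other. The untreated levels were 2.02 FPKM (1.44 to 2.61) in *Irf1*-/-, 2.59 FPKM (1.87 to 3.30) in *Irf3/7*-/- and 0.684 FPKM (0.441 to 0.925) in *Tmem173*-/- BMDCs.

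*Cmpk2*, the neighbour of *Rsad2*, gave the same order of the treated genotypes at a lower level. It rose from 7.32 FPKM (5.26 to 9.29) to 410 FPKM (296 to 521) in wild-type BMDCs. The treated knockouts had 117 FPKM (84.8 to 150; *Irf1*-/-), 171 FPKM (124 to 215; *Irf3/7*-/-) and 1.83 FPKM (1.25 to 2.41; *Tmem173*-/-). In the untreated knockouts it was at 2.14 FPKM (1.48 to 2.79), 4.24 FPKM (3.02 to 5.42) and 1.60 FPKM (1.10 to 2.09). As for *Rsad2*, the treated *Irf* knockouts overlapped each other and not the wild type.

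The ratio of *Rsad2* to *Cmpk2* FPKM was 3.04 (2.06 to 4.48) in treated wild-type, 3.09 (2.12 to 4.49) in treated *Irf1*-/- and 3.04 (2.09 to 4.42) in treated *Irf3/7*-/- BMDCs. Without treatment it was 0.545 (0.370 to 0.804) in wild-type, 0.945 (0.621 to 1.44) in *Irf1*-/- and 0.610 (0.411 to 0.907) in *Irf3/7*-/- BMDCs. Thus *Cmpk2* was the more abundant RNA of the pair in untreated wild-type cells, *Rsad2* in treated ones, and the ratio after treatment differed between the 3 genotypes by less than its interval although the levels of both genes differed. In *Tmem173*-/- BMDCs the ratio was 0.427 (0.266 to 0.683) without and 0.797 (0.509 to 1.25) with c-di-GMP.

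The Mx genes differed from the rest by a high untreated level of *Mx1*. *Mx1* was at 28.4 FPKM (21.7 to 35.1) in untreated and 157 FPKM (113 to 201) in treated wild-type BMDCs. The treated knockouts had 138 FPKM (98.6 to 178; *Irf1*-/-), 141 FPKM (102 to 182; *Irf3/7*-/-) and 22.7 FPKM (15.9 to 29.6; *Tmem173*-/-). The untreated knockouts had 20.7 FPKM (14.9 to 26.7), 27.6 FPKM (19.7 to 35.6) and 24.4 FPKM (17.1 to 31.8), all overlapping untreated wild-type BMDCs. *Mx1* therefore fell into an upper set of 3 treated conditions and a lower set of 5 conditions, with neighbours in the order overlapping within each set.

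*Mx2* was at 1.19 FPKM (0.772 to 1.59) in untreated and 37.0 FPKM (25.6 to 48.8) in treated wild-type BMDCs. It reached 30.1 FPKM (20.5 to 39.8) in treated *Irf1*-/-, 26.2 FPKM (18.7 to 34.8) in treated *Irf3/7*-/- and 0.705 FPKM (0.351 to 1.07) in treated *Tmem173*-/- BMDCs. Untreated knockouts were between 0.538 FPKM (0.262 to 0.822; *Tmem173*-/-) and 0.840 FPKM (0.439 to 1.25; *Irf1*-/-), with *Irf3/7*-/- at 0.681 FPKM (0.351 to 1.02). *Mx2* showed the same upper and lower sets as *Mx1*, but the ratio of *Mx1* to *Mx2* was 24.0 (15.8 to 36.4) in untreated and 4.24 (2.78 to 6.46) in treated wild-type BMDCs. The Mx genes share part of their transcripts, 7.30% of the 35-base stretches of *Mx1* with other genes and 6.91% of those of *Mx2* with *Mx1*.

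*Ifi44* rose from 1.92 FPKM (1.29 to 2.54) to 73.3 FPKM (54.4 to 91.6) in wild-type BMDCs. The treated knockouts were at 29.2 FPKM (21.6 to 36.7; *Irf1*-/-), 23.0 FPKM (16.8 to 28.5; *Irf3/7*-/-) and 0.229 FPKM (0.109 to 0.342; *Tmem173*-/-). Their untreated levels were 0.190 FPKM (0.0820 to 0.301), 0.390 FPKM (0.219 to 0.574) and 0.140 FPKM (0.0547 to 0.232), each below untreated wild-type BMDCs without overlap. *Ifi44* was thus the only 1 of the 8 genes that lay below wild-type BMDCs in every knockout, treated and untreated, with more than a 2-fold difference.

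The question of how far c-di-GMP acts on these genes in each genotype was answered by the change within it. In wild-type BMDCs the log2 change was 8.25 for *Rsad2*, 6.27 for *Ifit3*, 5.81 for *Ifit1*, 5.79 for *Cmpk2*, 5.69 for *Ifit2*, 5.19 for *Ifi44*, 4.85 for *Mx2* and 2.46 for *Mx1*. The FPKM ratio behind these values ran from 5.51 for *Mx1* to 312 for *Rsad2*. Among the 11201 genes tested, *Rsad2* had rank 13 of the log2 change, *Ifit3* 28, *Ifit1* 35, *Cmpk2* 38, *Ifit2* 41, *Ifi44* 54, *Mx2* 64 and *Mx1* 289. Viperin and the IFIT genes were therefore near the top of the whole response.

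In *Irf1*-/- BMDCs c-di-GMP also raised 8 of the 8 genes (9.67% of all genes tested were called higher), with log2 changes from 2.73 for *Mx1* to 7.43 for *Ifit3* and a median of 6.73 against 0.00158 for all genes tested. In *Irf3/7*-/- BMDCs 8 of the 8 were called higher as well (10.2% of all genes tested), from 2.35 for *Mx1* to 7.59 for *Rsad2*, with a median of 5.92 against 0.00448. Every one of the 8 genes was thus called higher with c-di-GMP in each genotype that has STING.

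In *Tmem173*-/- BMDCs the summed level of the 8 genes was 29.5 FPKM both without and with c-di-GMP, and the highest of them was *Mx1* in each case. At 24.4 and 22.7 FPKM *Mx1* gave most of both sums, so their equality says little about the other genes. Of the 8 genes, 4 reached 1 FPKM and were tested, and none was called higher (0.0460% of all genes tested, 5 of 10867) or lower. Viperin came nearest: its untreated and treated intervals did not overlap, and its log2 change of 0.99 (0.37 to 1.61) lay just under the threshold. Without the added 0.1 the ratio of its treated to its untreated FPKM was 2.13. With a pseudocount of 0.01 FPKM in place of 0.1, with a threshold of 1.5-fold, or with columns centred on their medians, *Rsad2* was called higher in *Tmem173*-/- BMDCs. The other 7 genes had log2 changes between -0.11 for *Mx1* and 0.45 for *Ifi44*, with overlapping intervals.

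**Figure D2:**
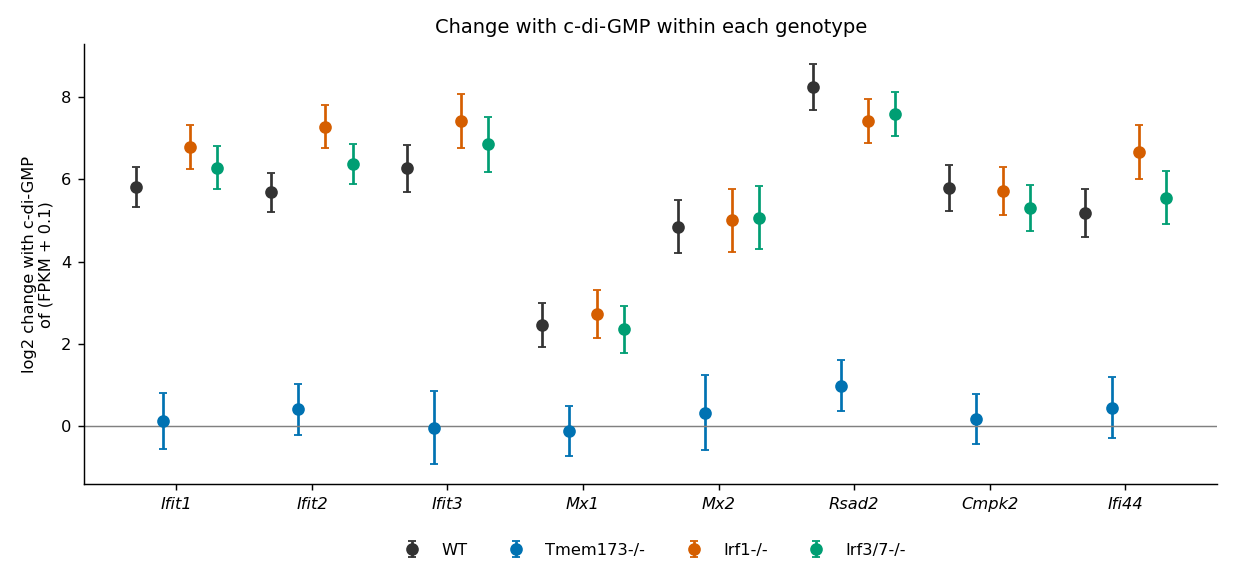
Log2 change of each gene with c-di-GMP on the scale of log2(FPKM + 0.1) within wild-type (WT), *Tmem173*-/-, *Irf1*-/- and *Irf3/7*-/- BMDCs, with intervals derived from the authors' bounds. The points of the 3 genotypes with STING lie between 2.35 and 8.25 and those of *Tmem173*-/- between -0.11 and 0.99.

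The change with c-di-GMP was then compared between genotypes. All 8 genes changed less in *Tmem173*-/- than in wild-type BMDCs by an interval below 0, which 15.1% of 11493 genes tested also had, with a log2 difference from -2.56 (-3.37 to -1.75) for *Mx1* to -7.26 (-8.09 to -6.43) for *Rsad2*. In *Irf1*-/- BMDCs the change was larger than in wild-type BMDCs for 4 genes and smaller for 1. Of all 11469 genes tested in the same way, 3.99% had an interval above 0 and 3.65% below. The difference was 1.59 (0.89 to 2.30) for *Ifit2*, 1.47 (0.60 to 2.35) for *Ifi44*, 1.15 (0.29 to 2.02) for *Ifit3* and 0.98 (0.26 to 1.71) for *Ifit1*, and it was -0.83 (-1.61 to -0.06) for *Rsad2*. The 4 genes with larger changes had lower untreated levels in *Irf1*-/- than in wild-type BMDCs, and no treated level of these genes in *Irf1*-/- exceeded that in wild-type BMDCs. Untreated *Cmpk2* (log2 difference -1.73) and *Rsad2* (-0.95) were also lower, yet the change of *Cmpk2* differed by only -0.08 (-0.88 to 0.73) and that of *Rsad2* was smaller. For *Ifi44*, which had 0.190 FPKM in untreated *Irf1*-/- BMDCs, the difference rests on the pseudocount, and with 1 FPKM added it was -0.0044. With 1 FPKM added, that of *Ifit3* was 0.57 and its interval held 0.

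The intervals of the difference held 0 for *Mx1*, *Mx2* and *Cmpk2* in *Irf1*-/- BMDCs. In *Irf3/7*-/- BMDCs they held 0 for 7 of the 8 genes, with differences between -0.66 for *Rsad2* and 0.58 for *Ifit3*, and the exception was *Ifit2* at 0.69 (0.0036 to 1.37), which was 0.52 with an interval that held 0 when 1 FPKM was added. Of all 11513 genes tested, 5.69% had an interval above 0 and 3.54% below. These intervals rest on the fits of the authors and leave out the spread between cultures.

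After c-di-GMP, the knockouts were compared with wild-type BMDCs, to ask how far the induced level depends on each factor. These comparisons share the treated wild-type values, and so do not stand alone. In treated *Tmem173*-/- BMDCs 8 of the 8 genes were lower than in treated wild-type BMDCs (13.5% of all 11318 genes tested were called lower), with a median log2 difference of -7.77 against 0.018 for all genes tested. The level was 0.117% of that in wild-type BMDCs for *Rsad2*, between 0.187% and 1.91% for *Ifit1*, *Ifit2*, *Ifit3*, *Mx2*, *Cmpk2* and *Ifi44*, and 14.5% for *Mx1*. The cultures also differed in markers of other cells. Of the neutrophil markers, 8 listed and 7 in the table, the summed level was 14533 FPKM in treated *Tmem173*-/- and 1905 FPKM in treated wild-type BMDCs, and that of 9 macrophage markers was 541 and 343 FPKM. NK cell markers summed to 4.16 and 674 FPKM, the latter mostly *Gzma* and *Gzmb*, with *Gzma* listed at 0 in the knockout. T cell markers summed to 1.73 and 49.6 FPKM. Their part in the difference was not tested.

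In treated *Irf1*-/- BMDCs 3 of the 8 genes were lower than in treated wild-type BMDCs, namely *Rsad2*, *Cmpk2* and *Ifi44* (4.91% of all 11079 genes tested were called lower). *Rsad2* was at 29.1% of the treated wild-type level, a log2 difference of -1.78 (-2.32 to -1.24). *Cmpk2* was at 28.6%, a log2 difference of -1.80 (-2.37 to -1.24), and *Ifi44* at 39.9%, a log2 difference of -1.32 (-1.85 to -0.80). The IFIT and Mx genes were at 75.8% to 95.4% of the treated wild-type level, all with overlapping intervals. The interval of the log2 difference was -0.94 to 0.35 for *Mx2*, -0.88 to 0.08 for *Ifit1* and -0.83 to 0.14 for *Ifit2*. It was -0.76 to 0.40 for *Mx1* and -0.54 to 0.40 for *Ifit3*. A reduction of nearly 2-fold is thus not excluded for *Mx2* or *Ifit1*, nor a somewhat smaller one for *Ifit2* or *Mx1*. Because these intervals leave out the spread between cultures, they do not exclude a larger reduction of any of the 5 genes. The median log2 difference of the 8 genes was -0.37 against 0.020 for all genes tested. The summed NK cell markers (7 of 7 in the table) were at 27.8 FPKM in treated *Irf1*-/- and 674 FPKM in treated wild-type BMDCs, both mostly *Gzma* and *Gzmb*. *Ncr1* was listed at 0 in treated *Irf1*-/- BMDCs, and the T cell markers were at 10.2 and 49.6 FPKM. The 9 macrophage markers were at 102 and 343 FPKM, with *Cd14* at 12.9 and 181 FPKM, and the neutrophil markers at 1407 and 1905 FPKM. Their part in the lower *Rsad2*, *Cmpk2* and *Ifi44* levels was not tested.

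In treated *Irf3/7*-/- BMDCs the genes called lower were again *Rsad2*, *Cmpk2* and *Ifi44*, 3 of the 8 (2.69% of all 11209 genes tested were called lower). *Rsad2* and *Cmpk2* each stood at 41.6% of the treated wild-type level, with a log2 difference of -1.27 (-1.82 to -0.71) for *Rsad2*. *Ifi44* was at 31.3%, a log2 difference of -1.67 (-2.19 to -1.15). *Ifit1* at 54.8% and *Ifit3* at 57.8% had intervals apart from wild-type BMDCs but a difference under 2-fold, and a threshold of 1.5-fold called both lower. *Ifit2* was at 78.7%, *Mx1* at 90.2% and *Mx2* at 70.8%, with overlapping intervals. In treated *Irf3/7*-/- BMDCs the same NK cell markers summed to 2177 FPKM, mostly *Gzma* (900 FPKM) and *Gzmb* (1242 FPKM), and the T cell markers to 167 FPKM. Both sums lay above treated wild-type BMDCs, while the macrophage markers summed to 239.8 FPKM (*Cd14*, 84.2 FPKM) and the neutrophil markers to 1446 FPKM, both below. Their part in the lower levels was not tested. With a threshold of 4-fold, none of the 8 genes was called lower in either treated *Irf* knockout.

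Compared directly, treated *Irf1*-/- and treated *Irf3/7*-/- BMDCs differed in 0 of the 8 genes by the rule, where 9.84% of all 11235 genes tested were called in either direction. The largest difference was that of *Ifit3*, 0.72 (0.25 to 1.19) higher in *Irf1*-/- BMDCs on the log2 scale, with intervals that did not overlap. *Cmpk2* at -0.54 (-1.10 to 0.02) and *Rsad2* at -0.52 (-1.04 to 0.01) were lower in *Irf1*-/- BMDCs with intervals that held 0, and *Ifit2* differed by 0.00 (-0.48 to 0.48).

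**Figure D3:**
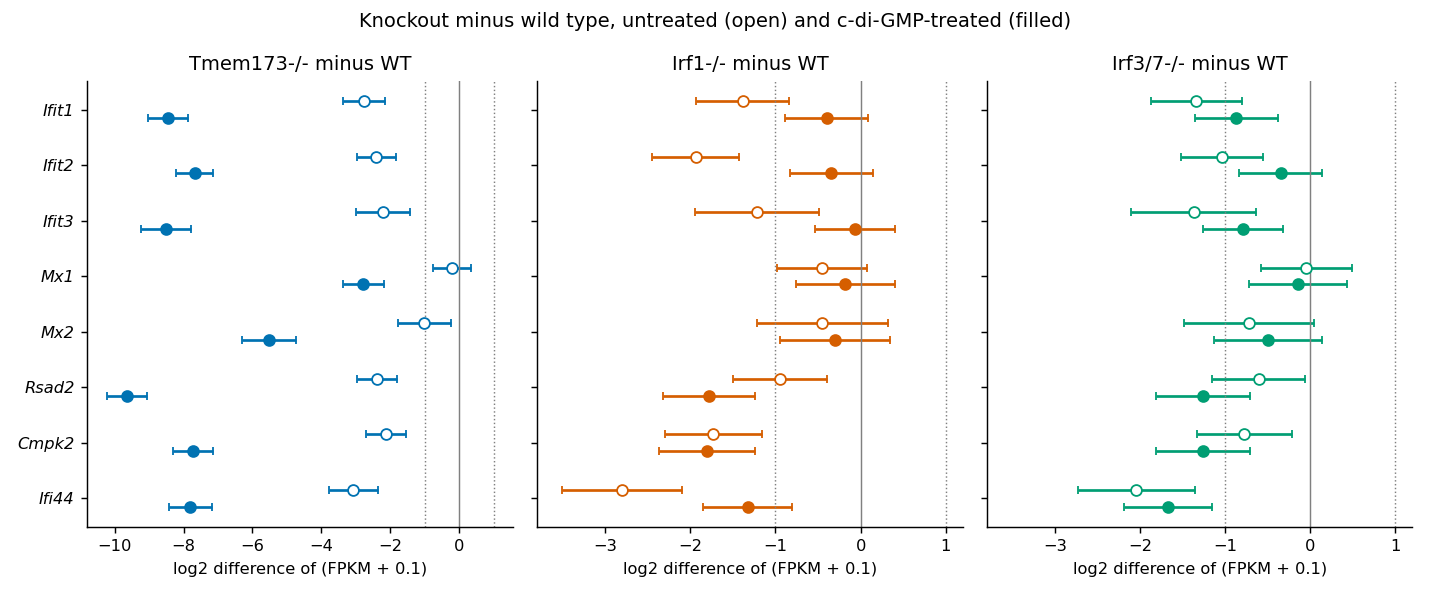
Log2 difference of each knockout from wild-type (WT) BMDCs on the scale of log2(FPKM + 0.1), untreated (open) and treated with c-di-GMP (filled), with intervals derived from the authors' bounds. Dotted lines mark a 2-fold difference, and the *Tmem173*-/- panel has a wider axis. In treated *Irf1*-/- and *Irf3/7*-/- BMDCs, *Rsad2*, *Cmpk2* and *Ifi44* lie left of the dotted line and the other 5 genes right of it.

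Without treatment the knockouts already differed from wild-type BMDCs. In untreated *Tmem173*-/- BMDCs 6 of the 8 genes were lower than in untreated wild-type BMDCs (5.95% of all 11101 genes tested were called lower), all but *Mx1* and *Mx2*. The log2 differences of the 6 genes ran from -3.07 (-3.77 to -2.37) for *Ifi44* to -2.12 (-2.70 to -1.55) for *Cmpk2*, and those of *Mx2* and *Mx1* were -1.01 (-1.79 to -0.23) and -0.22 (-0.77 to 0.33). In untreated *Irf1*-/- BMDCs 5 genes were lower (3.52% of all 11017 genes tested were called lower), namely *Ifi44* at -2.80 (-3.50 to -2.09), *Ifit2* at -1.94 (-2.45 to -1.43), *Cmpk2* at -1.73 (-2.30 to -1.15), *Ifit1* at -1.38 (-1.93 to -0.84) and *Ifit3* at -1.22 (-1.95 to -0.49). *Rsad2* at -0.95 (-1.50 to -0.39) had intervals apart but a difference under 2-fold. In untreated *Irf3/7*-/- BMDCs 4 genes were lower (0.863% of all 11004 genes tested were called lower), *Ifi44* at -2.04 (-2.73 to -1.35), *Ifit3* at -1.37 (-2.10 to -0.63), *Ifit1* at -1.34 (-1.87 to -0.80) and *Ifit2* at -1.03 (-1.52 to -0.55).

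The IFIT genes and *Ifi44* were thus called lower in each untreated knockout, while the IFIT genes were called lower in neither treated *Irf* knockout. These comparisons share the untreated wild-type values. The untreated counts depend on low levels: when at least 5 FPKM was asked of 1 condition, they were 3, 3 and 2 in *Tmem173*-/-, *Irf1*-/- and *Irf3/7*-/- BMDCs, since only *Ifit1*, *Ifit2*, *Cmpk2* and *Mx1* were then tested. The shares of all genes given above hold for the minimum of 1 FPKM. Markers of other cells moved with genotype in these cultures. The summed level of 7 NK cell markers was 687 FPKM in untreated wild-type, 701 in *Irf3/7*-/-, 18.0 in *Irf1*-/- and 4.98 FPKM in *Tmem173*-/- BMDCs. *Ncr1* was listed at 0 in the last 2 genotypes and *Gzma* also in *Tmem173*-/-. Most of these sums was *Gzma* and *Gzmb*, except in *Tmem173*-/- BMDCs, where *Klrd1* had 4.83 FPKM against 2.01 FPKM in wild-type BMDCs. The summed level of the T cell markers, 8 listed and 7 in the table, was 68.4, 93.9, 6.43 and 1.76 FPKM in the same order, with none listed at 0. Neutrophil markers summed to 4015, 2258, 2460 and 20003 FPKM in that order and macrophage markers to 213, 209, 96.8 and 587 FPKM. Their part in the untreated differences was not tested.

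Other genes of the pathway were read from lists. Of 25 other antiviral interferon-stimulated genes, 24 rose with treatment in wild-type BMDCs (median log2 change 2.74), against 10.5% of all genes tested. The largest changes were those of *Oasl1* (6.66) and *Isg20* (4.21) and the smallest those of *Samhd1* (0.94, not called) and *Adar* (1.08). In treated *Irf1*-/- BMDCs 1 of the 25 was lower than in treated wild-type cells, *Isg20* at -1.03, and the next lowest value was that of *Oas2* (-0.65, not called), with a median of -0.23. In treated *Irf3/7*-/- BMDCs 3 were lower, with *Ifi27l2a* at -2.23 and *Oasl1* at -1.94 the lowest and a median of -0.50. None of the 25 was higher in either knockout, where the highest values were 0.30 for *Oas1g* in *Irf1*-/- and 0.13 for *Zbp1* in *Irf3/7*-/- BMDCs. Without treatment 22 of the 25 were lower in *Tmem173*-/-, 15 in *Irf1*-/- and 8 in *Irf3/7*-/- than in wild-type BMDCs. Of all genes tested, 5.95%, 3.52% and 0.863% were called lower in these untreated comparisons. In treated *Irf1*-/- and *Irf3/7*-/- BMDCs the share was 4.91% and 2.69%.

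The closest relatives of the IFIT genes behaved unequally. Of 5 listed paralogs, 4 were in the table and 3 were tested, while *Ifi44l* was listed at 0 in all 8 conditions. *Gm14446*, which RefSeq names *Ifit1bl1*, was at 0.518 FPKM in untreated and 176 FPKM in treated wild-type BMDCs, and was lower in treated *Irf1*-/- (48.0 FPKM, log2 difference -1.88) and *Irf3/7*-/- BMDCs (30.6 FPKM, -2.52). *I830012O16Rik*, now *Ifit3b*, was at 17.8 FPKM in treated wild-type, 14.6 in *Irf1*-/- and 10.3 FPKM in *Irf3/7*-/- BMDCs, log2 differences of -0.29 and -0.79 that were not called. These match the differences of its near copy *Ifit3* in direction, and reads of the 2 genes are partly shared. *2010002M12Rik*, now *Ifit1bl2*, reached 1.13 FPKM in treated wild-type BMDCs, a called log2 change of 2.51.

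Signalling genes of the interferon response were given beside the effectors. Of 13 genes of ISGF3 and its feedback, 6 rose in treated wild-type cells, against 10.5% of all genes tested. None was called in treated *Irf1*-/- against treated wild-type BMDCs, and in treated *Irf3/7*-/- BMDCs 1 was higher and 1 lower. The higher gene was *Ifnb1*, the interferon-β gene, at 22.6 FPKM in treated *Irf3/7*-/- and 2.93 FPKM in treated wild-type BMDCs, and the lower 1 was the deleted *Irf7*. *Irf3/7*-/- BMDCs thus had more *Ifnb1* RNA and less *Rsad2*, *Cmpk2* and *Ifi44* RNA than wild-type BMDCs at 18 h.

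Of 15 genes also induced through interferon-γ and IRF1, 9 were lower in treated *Irf1*-/- than in the treated wild type (median log2 difference -1.43), the lowest being *Iigp1* (-4.53) and *Gbp4* (-3.58) and the highest *Irgm1* (-0.41) and *Psmb9* (-0.47), neither called. In treated *Irf3/7*-/- BMDCs 1 was lower, *Ciita* at -1.02, with a median of -0.39. Without treatment 14 of these 15 were lower in *Irf1*-/- and 15 in *Tmem173*-/-, and 0 in *Irf3/7*-/- BMDCs. The share of all genes called lower was 3.52%, 5.95% and 0.863% in the same order, and 4.91% and 2.69% in treated *Irf1*-/- and *Irf3/7*-/- BMDCs. Of 10 nucleotide synthesis enzymes listed beside *Cmpk2*, none rose in wild-type BMDCs and 4 fell (9.96% of all genes tested were called lower), with *Ctps* (-2.21) and *Uck2* (-1.91) the lowest and *Dck* (0.52) and *Ctps2* (0.40) the highest values.

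**Figure D4:**
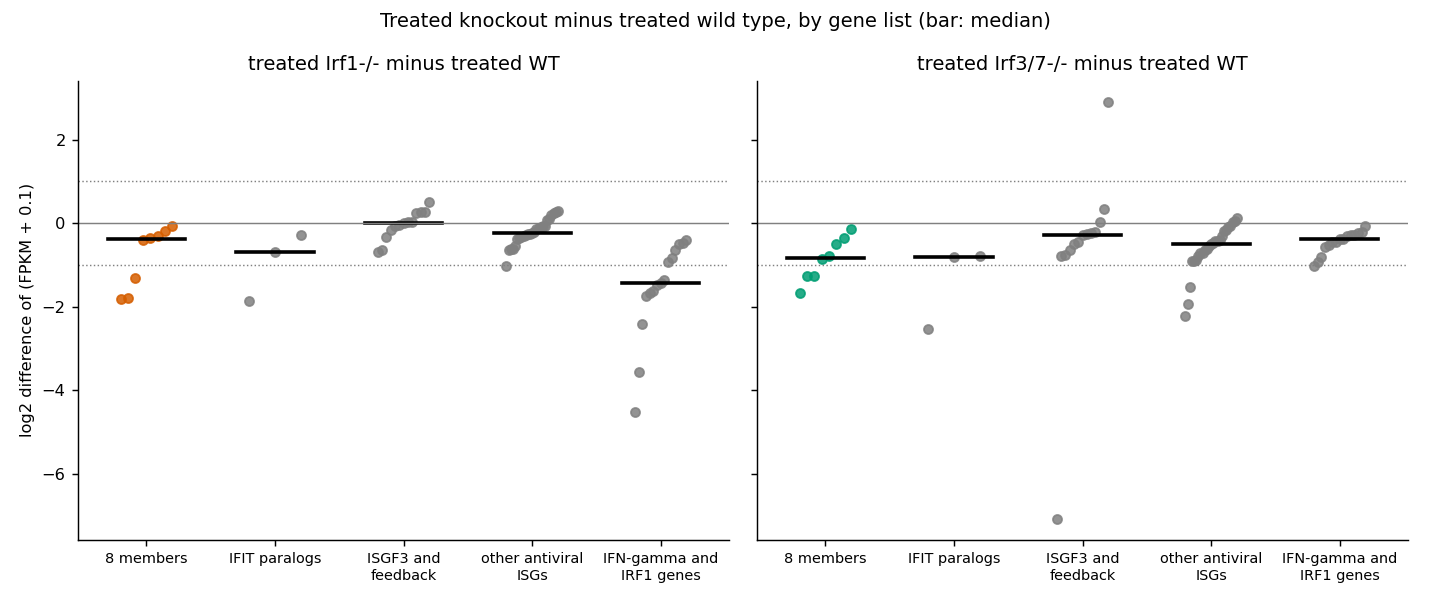
Log2 difference of treated *Irf1*-/- (left) and treated *Irf3/7*-/- (right) from treated wild-type (WT) BMDCs for the 8 genes (coloured) and for 4 gene lists (grey), 1 point a gene, with the median as a bar and dotted lines at a 2-fold difference. In both panels 3 of the 8 coloured points lie below the lower dotted line, and the list of genes also induced through interferon-γ and IRF1 has its median at -1.43 in *Irf1*-/- and -0.39 in *Irf3/7*-/-.

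Across the 8 conditions the 8 genes had similar profiles, with Pearson's r of log2(FPKM + 0.1) between 0.972 (*Mx1* and *Ifi44*) and 0.998 (*Ifit1* and *Ifit3*). The 8 points share genotypes and are split by treatment, so r is a description. The genes outside the 8 that came closest to their mean profile, among 7374 genes with at least 10 FPKM in 1 condition, were *Trim30a* (r = 0.999), *Trim30d* (0.9986), *Zufsp* (0.9982), *Daxx* (0.9978) and *Pydc4* (0.9978). *Trim30a*, for example, was at 33.2 and 214 FPKM in untreated and treated wild-type, 15.5 and 19.0 FPKM in *Tmem173*-/-, 20.8 and 178 FPKM in *Irf1*-/-, and 23.5 and 154 FPKM in *Irf3/7*-/- BMDCs. By Spearman's rho 36 genes reached 1, *Trim30a*, *Trim30d* and *Pydc4* among them, so the choice of 5 depends on the measure.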

How the data were processed

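RNA-seq libraries of BMDCs were made with the Illumina TruSeq Stranded mRNA kit and sequenced as 35-base paired-end reads. The authors ran Cuffdiff (version 1.06 per the submitters' processing notes) and deposited 1 FPKM value per gene and condition, with confidence bounds and a status, which combines the 2 samples of a condition. Values of single samples were not used here, and whether these came from separate cultures is not stated, so no p-value or SD was computed. Aligner and annotation are not given in the sources used here, and an opposing-strand setting is stated for SeqMonk but not for Cuffdiff. The notes name mm9, but loci of 21454 of 21681 genes (99.0%) overlapped their namesake in GRCm38 (GENCODE M21), and GRCm38 positions are given. The column whose name adds GDP was read as treated *Tmem173*-/-. A further 3 value columns, of another knockout, were not used.

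Values were compared as log2(FPKM + 0.1) over the whole table, with the call rule given above and a minimum of 1 FPKM. Intervals of differences take each bound as 1.96 standard errors. The depth per sample is not known from FPKM, and the authors' interval stands for the precision. Genes named are the 8 members, the targeted genes, the 5 genes nearest in profile, and the 2 highest and 2 lowest genes of a list in the comparison described. Genes called in a list of few calls were also named. The members and lists were chosen with earlier results of these data known. Alternatives were pseudocounts of 1 and 0.01 FPKM, no minimum or 5 FPKM, thresholds of 1.5 and 4, median centring, the fold alone, a z from the intervals, and the exchanged *Tmem173*-/- columns. The call rule was tested on simulated data. Tables were handled with pandas 2.3.3 and numpy 2.4.6 in python 3.11.15, and figures drawn with matplotlib 3.10.9.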

Additional observations from a re-analysis of the deposited data

Results flagged for a closer look

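The change with c-di-GMP differed from that in wild-type BMDCs, by an interval of the difference that leaves out 0, in 14 cases. The same rule held for 15.1% of all genes tested in *Tmem173*-/- BMDCs (below 0), for 3.99% (above) and 3.65% (below) in *Irf1*-/- and for 5.69% (above) and 3.54% (below) in *Irf3/7*-/- BMDCs. In *Tmem173*-/- BMDCs the log2 change was smaller for all 8 genes: the difference from wild-type BMDCs was -5.69 for *Ifit1*, -5.27 for *Ifit2*, -6.30 for *Ifit3*, -2.56 for *Mx1*, -4.51 for *Mx2*, -7.26 for *Rsad2*, -5.61 for *Cmpk2* and -4.73 for *Ifi44*. In *Irf1*-/- BMDCs it was larger for *Ifit1* (0.98), *Ifit2* (1.59), *Ifit3* (1.15) and *Ifi44* (1.47) and smaller for *Rsad2* (-0.83). In *Irf3/7*-/- BMDCs it was larger for *Ifit2* (0.69). The interval is that of the authors' fit, and with 1 value per condition no sample could be compared with the others of its group.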

How the results depend on the processing

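No paired analysis was possible because the table holds 1 value per condition, and for the same reason no sample could be left out. Of the recomputed counts of called members, 89 stayed within 1.5 times the reported one, 5 rose and 8 fell by more, and no called gene changed its direction. In *Tmem173*-/- BMDCs the count of genes higher with c-di-GMP was 1 (*Rsad2*) in place of 0 with a pseudocount of 0.01 FPKM, a threshold of 1.5-fold or median centring. With a threshold of 1.5-fold, 5 genes were lower in treated *Irf3/7*-/- than in treated wild-type BMDCs, and 1 (*Ifit3*) differed between treated *Irf1*-/- and *Irf3/7*-/- BMDCs. With 4-fold, 0 genes were lower in treated *Irf1*-/- and 0 in treated *Irf3/7*-/- BMDCs, and 1 each in the untreated ones. With a minimum of 5 FPKM, the untreated counts were 3 for *Tmem173*-/-, 3 for *Irf1*-/- and 2 for *Irf3/7*-/- BMDCs, since fewer genes were tested, and with a pseudocount of 1 FPKM the last was 2. The share of all genes called is given for the main rule only, so these counts have no share to be read against.

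With a pseudocount of 1 FPKM, the difference in log2 change from wild-type BMDCs was 0.57 for *Ifit3* in *Irf1*-/- and 0.52 for *Ifit2* in *Irf3/7*-/- BMDCs, whose intervals then held 0, -0.79 for *Rsad2* in *Irf3/7*-/- BMDCs, whose interval then left out 0, and -0.0044 for *Ifi44* in *Irf1*-/- BMDCs. Of the 5 genes nearest in profile, 3 stayed among the nearest 5 with this pseudocount and 0 by Spearman's rho, where ties are many. Exchanging the *Tmem173*-/- columns, an alternative chosen after seeing the data, left every count within 1.5 times. Levels below 1 FPKM are the least precise, with bounds up to 64.9% from the value.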
